A study of Rattus norvegicus with 70 samples.

Results

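Cytochrome P450 genes (Cyp genes) encode haem monooxygenases, and in rat liver they carry out much of the first oxidation of drugs and carcinogens as well as steps in the making of bile acids, steroids and lipid mediators. The set described here holds every region whose gene symbol begins with Cyp followed by a family number and a subfamily letter, which gave 72 of the 17174 regions in the deposited tables. The 72 regions carried 69 symbols in 35 subfamilies, and 23 of them lay on chromosome 1. Each region spanned 5625 bp around a transcript start. Because of overlaps they covered 69 separate places: the regions of Cyp4a3 and of one of 2 Cyp4a2 entries shared all values, as did those of Cyp4a1 and Cyp4a10. The regions of Cyp4f18 and Cyp39a1 also overlapped the non-Cyp genes Tpm4 and Slc25a27.

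Phenobarbital, the tumour promoter of this study, acts in liver through the nuclear receptor CAR and is best known for inducing the Cyp2b genes, with Cyp3a and Cyp2c genes beside them. Several of the initiators are themselves P450 substrates: Cyp2e1 takes part in activating diethylnitrosamine, thioacetamide and acetaminophen. DNA methylation near a transcript start is one of the marks that can accompany a silent gene.

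Methylated liver DNA was captured with a methyl-binding protein (MethylMiner) and sequenced on a SOLiD 4 instrument with 50 base reads in 70 libraries, 5 for each of 14 groups. All animals were Crj:CD(SD)IGS rats. Groups given an initiator received diethylnitrosamine at 3 mg/kg (DEN 3) or 30 mg/kg (DEN 30), thioacetamide (TAA) at 45 mg/kg, methapyrilene (MP) at 100 mg/kg or acetaminophen (APAP) at 1000 mg/kg, were left untreated for 2 weeks, and then drank phenobarbital at 500 ppm. Dosing lasted 1 or 2 weeks, and DEN 30 was stopped after 1 week because of weight loss. The phenobarbital control had 0.5% methylcellulose in place of an initiator and the same phenobarbital, and the water control had methylcellulose and plain water. Promotion had lasted 1 week when liver was taken by partial hepatectomy and 6 weeks when the rats were killed (terminal euthanasia), so that every liver at the second time came from a rat that had been hepatectomised. Values are the deposited signal, the read number of a region scaled to a common library total. Group values are means ± SD of 5 livers. In whole liver, fewer methylated cells and less methylation in each cell cannot be told apart.

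The scaling totals ran from 42.1 to 56.6 M reads (M, 1e6) and the reads inside the regions from 0.933 to 1.80 M for a library. In 9 libraries under 1% of all regions were empty (0.611% to 0.932%, against 1.60% to 5.39% in the other 61). At partial hepatectomy this concerned DEN 30 (replicates 3 and 4), APAP (5) and water (5), and at terminal euthanasia DEN 30 (3), TAA (4), MP (3), APAP (3) and phenobarbital (5). Replicate 5 of every initiator group belonged to a last block of 10 library numbers whose scaling totals are also those of 10 libraries with the first numbers. Neither control had a library in that block, and the earlier numbers were also spread unevenly over the groups. Block was thus partly confounded with every comparison of an initiator with the control. For some of the results that the 9 libraries or the last block moved, values without them are given as well.

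Promoter sequences show how differently the members are built. RefSeq promoters (build GRCr8, 250 bases before to 50 after the start) were matched for 49 Cyp genes. They held a median of 3 CpG dinucleotides in 300 bases, against 16 over 12718 matched regions of the whole table. The 250 bases upstream of the start are printed below on the gene's strand, 5′ to 3′, with each CpG in capitals. Cyp2b1 and Cyp3a23/3a1 are classical phenobarbital-inducible genes, Cyp2c11 is the male-specific steroid hydroxylase of rat liver, Cyp26a1 degrades retinoic acid, and Cyp2s1 had the highest signal among the xenobiotic families.
Cyp2b1, chr1:90645869-90646118, plus strand: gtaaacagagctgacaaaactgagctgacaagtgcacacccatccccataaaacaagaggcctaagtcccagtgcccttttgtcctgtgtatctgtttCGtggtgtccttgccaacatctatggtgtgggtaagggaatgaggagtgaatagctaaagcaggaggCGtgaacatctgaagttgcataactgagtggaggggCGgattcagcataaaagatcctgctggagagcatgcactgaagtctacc
Cyp3a23/3a1, chr12:14398804-14399053, minus strand: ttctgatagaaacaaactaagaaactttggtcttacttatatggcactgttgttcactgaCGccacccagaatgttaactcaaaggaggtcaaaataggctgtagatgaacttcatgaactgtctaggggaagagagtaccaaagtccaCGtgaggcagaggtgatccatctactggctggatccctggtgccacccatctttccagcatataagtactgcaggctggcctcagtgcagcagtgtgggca
Cyp2c11, chr1:246174966-246175215, plus strand: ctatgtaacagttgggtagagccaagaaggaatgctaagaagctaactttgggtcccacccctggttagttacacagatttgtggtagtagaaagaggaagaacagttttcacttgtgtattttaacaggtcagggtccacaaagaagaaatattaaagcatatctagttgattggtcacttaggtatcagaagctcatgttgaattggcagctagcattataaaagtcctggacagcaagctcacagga
Cyp26a1, chr1:244883572-244883821, plus strand: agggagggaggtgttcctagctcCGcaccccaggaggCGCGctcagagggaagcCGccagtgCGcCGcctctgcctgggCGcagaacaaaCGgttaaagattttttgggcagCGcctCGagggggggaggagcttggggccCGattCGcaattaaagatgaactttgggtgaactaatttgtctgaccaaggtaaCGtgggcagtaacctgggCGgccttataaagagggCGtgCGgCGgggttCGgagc
Cyp2s1, chr1:90453074-90453323, minus strand: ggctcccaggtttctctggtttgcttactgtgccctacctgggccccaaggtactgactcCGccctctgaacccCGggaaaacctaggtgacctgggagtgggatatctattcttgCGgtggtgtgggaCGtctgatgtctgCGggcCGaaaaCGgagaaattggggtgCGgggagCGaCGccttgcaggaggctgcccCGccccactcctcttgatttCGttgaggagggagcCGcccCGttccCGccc

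The printed 250 bases held 3 CpG in Cyp2b1, 2 in Cyp3a23/3a1, 0 in Cyp2c11, 18 in Cyp26a1 and 15 in Cyp2s1. Both strands of the 300-base promoters were searched for 4 motifs. A direct repeat of AGTTCA with 3 bases between the copies, a known type of site of the pregnane X receptor in rat Cyp3a promoters, occurred in 2 of 27457 promoters, those of Cyp3a2 and Cyp3a23/3a1, in the second of which it lay 144 to 130 bases before the start on the opposite strand. The same repeat with 5 bases between, a retinoic acid receptor type of site, occurred in 3 of the 27457 promoters, 1 of them Cyp26a1, 92 to 76 bases before the start. The core GCGTG of the aryl hydrocarbon receptor site stood in 14 of 49 Cyp promoters (28.6%) and in 31.1% of all. TATAAA stood in 14 of 49 (28.6%) and in 14.3% of all. Both repeats are built from AGTTCA, and in Cyp26a1 the matches of different motifs did not overlap. A match is only a stretch of letters.

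The Cyp regions carried less signal than most of the table. Over the 70 libraries their median mean signal was 29.7, against 53.5 for all regions, and 25 of the 72 lay above that value. A mean under 5 was found for 17 Cyp regions (23.6%), against 7.25% of all regions. The signal counts captured reads and was not corrected for CpG number, so a level is not a degree of methylation. Levels between genes are compared here only as signal over windows of equal length.

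The low values sat in the drug-metabolising families. Among 38 regions of the Cyp1, Cyp2 and Cyp3 families without Cyp2r1 the median was 13.97, with 15 of 38 under 5. The 7 Cyp2b regions had a median of 1.99, the 7 Cyp2c regions 1.57 and the 4 Cyp3a regions 2.13. Cyp2c13, a male-specific liver enzyme (chromosome Un, 17271761 to 17277386), averaged 0.023 and had no read in 69 of 70 libraries. One of 2 Cyp2b3 entries (chromosome 1, 81403936 to 81409561) averaged 0.081 with no read in 65 libraries, and Cyp3a9 (chromosome 12, 17159884 to 17165509) averaged 0.143 with no read in 66. Cyp2b15 (0.726) and one of 2 Cyp2c7 entries (0.960) completed the 5 lowest. Coordinates are those of the files, and no source used here names their genome build. These subfamilies are tandem clusters of close paralogs, and none says how reads matching several copies were counted, so low values there are uncertain.

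Not all xenobiotic members were low, and high and low levels both occurred among genes known from liver and among genes known from other tissues. Cyp2s1, a mainly extrahepatic P450 (chromosome 1, 81022361 to 81027986), averaged 164.2, Cyp1b1, an extrahepatic enzyme of the aryl hydrocarbon receptor pathway, 129.03, and Cyp2a3, known from nasal and lung tissue, 116.9. The lung enzyme Cyp2f4, by contrast, averaged 13.7 and Cyp2b12, known from skin, 14.5. Among liver enzymes Cyp1a2 averaged 14.2, Cyp2e1 25.2, Cyp2a1 11.3 and Cyp2a2 16.6, whereas Cyp2d1, the debrisoquine hydroxylase of rat liver, averaged 116.2 and Cyp2d5 83.8. Cyp2d4, the brain form of that subfamily, averaged 2.50. Cyp2a3 and Cyp2d4 were picked with their values already in view.

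The other roles lay closer to the table's median. The 16 Cyp4 regions, fatty acid and eicosanoid hydroxylases, had a median of 48.6, and the 7 Cyp4f regions among them 77.4. Cyp4f17 (chromosome 7, 13091057 to 13096682) had the highest signal of all members, 368.6. The 6 sterol and bile acid genes had a median of 62.2. Among them were Cyp39a1 at 204.0 (chromosome 9, 13001451 to 13007076) and Cyp46a1, the brain cholesterol hydroxylase, at 164.7. Cyp7a1, the rate-limiting enzyme of bile acid synthesis, averaged 59.7. The 7 steroid hormone genes, mostly adrenal or gonadal, had a median of 77.5, with Cyp19a1 (aromatase) at 153.0. The 4 vitamin A and D genes had 40.1, and Cyp20a1, an orphan, 30.4.

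**Figure D1:**
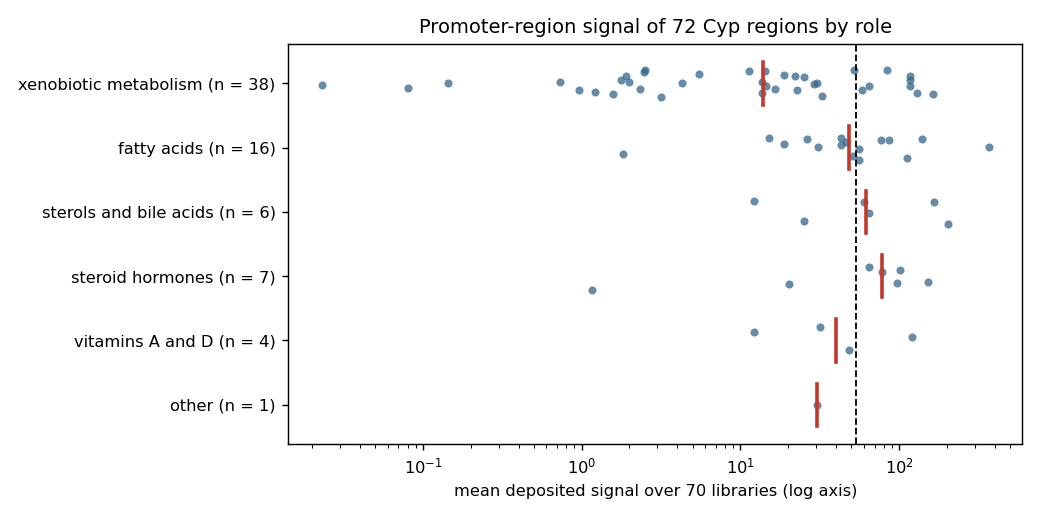
Mean deposited signal over 70 libraries (log axis) of each of the 72 Cyp regions, 1 point a region, in rows by role. Red bars are role medians (13.97 for xenobiotic metabolism, 77.5 for steroid hormones) and the dashed line is the median of all regions, 53.5.

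Signal went with the CpG number of the promoter among these genes. The Spearman correlation of CpG number with mean signal was 0.467 over 49 Cyp regions and 0.101 over 12718 regions, given as a description since neighbouring paralogs share sequence and all points share the libraries. The 13 Cyp regions with at least 8 CpG had a median signal of 48.4 and the 36 with fewer had 19.5. Cyp26a1, with 18 CpG in the bases printed, nonetheless averaged 12.1, and Cyp2a3 had 116.9 with fewer than 8.

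The 9 libraries with few empty regions had a different profile over the Cyp genes. Their median Cyp signal was 32.7 to 42.2, against 20.8 to 36.97 in the other 61, and 2 to 6 Cyp regions had no read, against 5 to 13. The shift ran with level: of 47 Cyp regions below the table's median, 37 had the higher median in the 9 libraries, and of 25 at or above it 5 did. Over all regions these shares were 84.6% and 10.2%. Cyp4f17 had 149.8 to 261.3 in the 9 libraries and 269.2 to 565.8 in the 61, and Cyp39a1 had 90.1 to 153.1 and 161.7 to 335.6, so that for both genes the sets did not overlap. At the other end Cyp4a8 had 4.20 to 15.2 in the 9 libraries and at most 3.96 in the 61, and Cyp2b21 had 4.85 to 16.02 and at most 4.40; these 2 genes were named after their values were seen. In all, 2 Cyp regions lay wholly above and 2 wholly below, where 1.03% and 1.86% of all regions did so. The 9 libraries were picked by the empty share of the same tables, so this is a description, with no test.

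Phenobarbital was set against water to ask what the promoter alone did at these genes. At neither time did a Cyp region pass limma's test, with 55 of 72 regions tested at partial hepatectomy and 56 at terminal euthanasia. The other 17 and 16 stayed under a signal of 10 in all but at most 4 libraries. Without adjustment, 3 Cyp regions lay above and 0 below at p under 0.05 at partial hepatectomy (all regions: 3.89% above, 2.39% below), and 2 above and 1 below at terminal euthanasia (2.13% and 1.04%). No region of the table passed at either time (0%). The median log2 difference of the tested Cyp regions was 0.09 at partial hepatectomy, against 0.06 for all regions, and 0.00 at terminal euthanasia, against -0.00. At partial hepatectomy the sign of the Cyp median turned when libraries were rescaled to their reads in the regions (-0.03).

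The phenobarbital-inducible genes had little to measure. Cyp2b1, the classical phenobarbital-induced P450, had 2.11, 8.89, 2.12, 6.54 and 8.46 in the 5 phenobarbital libraries at partial hepatectomy, against 5.00, 2.05, 10.5, 7.36 and 10.1 in the water libraries. At terminal euthanasia its mean was 3.94 ± 2.00 in phenobarbital livers and 6.43 ± 4.14 in water livers. The groups overlapped at both times. Its log2 differences were -0.30 (SE 0.66) and -0.49 (SE 0.69), with limma adjusted p of 0.909 and 1.00, and quantile normalization gave 0.17 at partial hepatectomy. Leaving out 1 library at a time gave -0.61 (without water replicate 2) to -0.08 (without phenobarbital replicate 1) at partial hepatectomy, and at terminal euthanasia -0.76 without water replicate 3. Only 9 of these fits at terminal euthanasia still held Cyp2b1, which passed the filter narrowly. Its median was 10.04 in the 9 libraries with few empty regions and 3.86 in the other 61. No fitted difference of Cyp2b1 without those libraries is given. Cyp2b2, its close paralog, was not tested: it averaged 1.84 ± 1.29 and 4.63 ± 3.59 in phenobarbital and water livers at partial hepatectomy, and 2.84 ± 3.76 and 1.62 ± 2.61 at terminal euthanasia. Without the libraries with few empty regions the water mean of Cyp2b2 at partial hepatectomy was 4.78 ± 4.13 (n = 4) and its phenobarbital mean at terminal euthanasia 1.26 ± 1.51 (n = 4), which put phenobarbital below water at both times. At partial hepatectomy Cyp3a2 had no read or at most 2.12 in phenobarbital livers, and in water livers 12.1 in replicate 5, a library with few empty regions, and at most 1.03 in the others. Its means were 0.834 ± 0.879 with phenobarbital and 2.84 ± 5.23 with water, or 0.512 ± 0.579 (n = 4) with water without that library, so the direction turned. Cyp3a18 likewise averaged 1.10 ± 1.89 with phenobarbital and 1.41 ± 2.10 with water, or 0.494 ± 0.559 (n = 4) without that library.

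Cyp3a23/3a1, the only tested Cyp3a region, had 24.2, 20.003, 14.8, 27.3 and 27.3 in phenobarbital livers at partial hepatectomy, against 32.995, 49.3, 19.1, 29.4 and 34.4 in water livers. Most of the water libraries were higher, but the ranges overlapped, and the log2 difference of -0.49 (SE 0.28) had a limma adjusted p of 0.742. At terminal euthanasia 2 phenobarbital libraries were far below the rest, at 5.07 and 8.32, and another 2 above all water libraries, at 38.04 and 48.1. The group mean was 24.5 ± 18.6 there, against 23.3 ± 7.27 with water, while the log2 difference was -0.29 (SE 0.36). Leaving out 1 library at a time gave -0.63 without phenobarbital replicate 5 to 0.13 without replicate 3.

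Among the other members fixed for this comparison, none had an unadjusted p under 0.05. Cyp1a1, the prototype aryl hydrocarbon receptor target, averaged 21.7 ± 2.86 with phenobarbital and 26.6 ± 6.65 with water at partial hepatectomy. Cyp2e1 averaged 27.9 ± 4.92 and 28.3 ± 13.7, and Cyp7a1 47.5 ± 10.01 and 55.8 ± 11.6. The members with the smallest p at partial hepatectomy were Cyp2d1 (115.4 ± 10.03 with phenobarbital and 89.1 ± 31.7 with water, log2 0.44) and Cyp4f4, a leukotriene hydroxylase (115.3 ± 18.3 and 88.3 ± 17.1, log2 0.39). At terminal euthanasia they were Cyp4f5, of the same subfamily, Cyp4b1 (16.5 ± 9.81 and 8.17 ± 5.51, log2 0.94) and the olfactory gene Cyp2g1 (65.2 ± 12.3 and 50.7 ± 32.9, log2 0.57, or 0.36 without water replicate 1). The adjusted p of each was 0.742 at partial hepatectomy and 1.00 at terminal euthanasia.

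**Figure D2:**
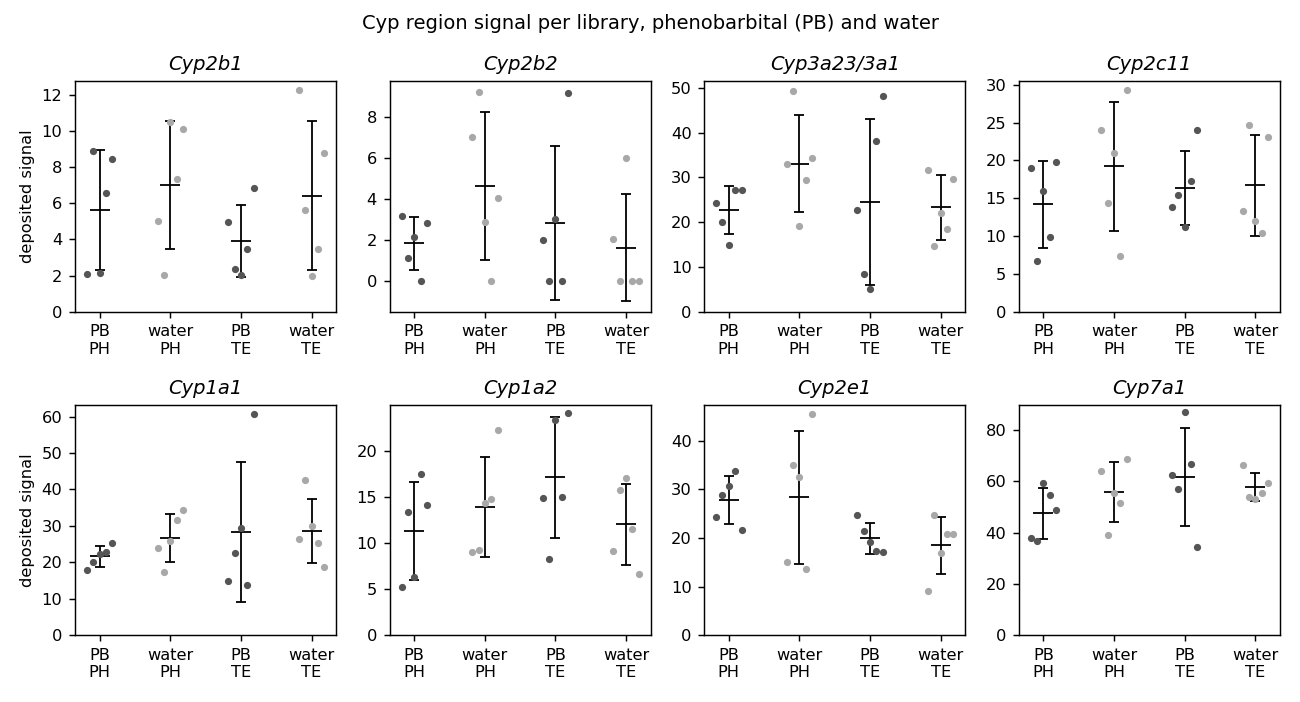
Deposited signal (vertical axes, linear) of 8 Cyp regions in the phenobarbital (PB) and water control groups at partial hepatectomy (PH) and terminal euthanasia (TE). Points are single libraries, horizontal ticks are means and bars are 1 SD (n = 5). The groups overlap in all panels, and Cyp2b1 and Cyp2b2 stay under 13.

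Initiators were compared with the phenobarbital control, which all 5 share, so that its values enter every one of these differences. At partial hepatectomy no Cyp region passed in any of the 5 comparisons, nor did any other region (0%). Without adjustment the Cyp regions at p under 0.05 all lay above the control, and none lay below. They were 2 for DEN 3 (all regions: 2.09% above, 1.08% below), 4 for DEN 30 (5.78% and 1.87%; 3 separate measurements, since Cyp4a1 and Cyp4a10 share all values), 3 for TAA (4.07% and 0.367%), 3 for MP (2.74% and 0.93%) and 1 for APAP (1.9% and 1.78%). The F test over all groups gave 0 Cyp regions, where 0.00633% of regions passed, and 5 at an unadjusted p under 0.05 (4.16% of all), among them Cyp4f5 (limma adjusted p = 0.973), Cyp3a23/3a1, Cyp2d1 and Cyp4a3 with the Cyp4a2 entry of equal values, so that the 5 hold 4 separate measurements.

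At terminal euthanasia again no Cyp region and no other region passed (0%). At an unadjusted p under 0.05, 3 Cyp regions lay above the control for DEN 3 (5.59% of all regions above, 2.92% below), 2 for DEN 30 (2.33% and 1.08%), 2 for TAA (1.33% and 0.731%), 5 for MP (2.19% and 0.381%) and 3 for APAP (2.38% and 0.381%), and 0 below in each. The F test gave 0 Cyp regions (0% of all passed) and 4 without adjustment (2.55% of all), of which Cyp4f6 had the smallest p.

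The Cyp medians stood slightly above the control in most comparisons, as did the whole table. At partial hepatectomy the median log2 difference was 0.01 for DEN 3 (all regions 0.02), 0.22 for DEN 30 (0.04), 0.18 for TAA (0.08), 0.09 for MP (0.04) and -0.06 for APAP (-0.03). At terminal euthanasia it was 0.10 for DEN 3 (0.09), 0.15 for DEN 30 (0.07), 0.04 for TAA (0.04), 0.16 for MP (0.09) and 0.18 for APAP (0.11). The widest gap was that of DEN 30 at partial hepatectomy. It nearly closed after quantile normalization (0.01, all regions -0.00) and without the 9 libraries with few empty regions, 2 of which belong to that group (0.11, all regions 0.08). It remained with libraries rescaled to their reads in the regions (0.26, all regions 0.08), with the block of library numbers as a covariate (0.14, all regions -0.00) and without the last block (0.15, all regions 0.00). APAP at partial hepatectomy turned to 0.01 when rescaled to the reads in the regions and 0.02 with no filter, DEN 3 at terminal euthanasia to -0.07 when rescaled, and TAA at terminal euthanasia to -0.02 with the block of library numbers as a covariate. The last block holds no control library. Without it the Cyp medians at terminal euthanasia were 0.07 for DEN 3 (all regions 0.03) and 0.06 for DEN 30 (0.005). For TAA, MP and APAP they were 0.004 (-0.05), 0.15 (0.05) and 0.09 (0.02). At partial hepatectomy they were 0.01 for DEN 3 (0.01), 0.14 for TAA (0.03), 0.07 for MP (-0.004) and -0.05 for APAP (-0.03).

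**Figure D3:**
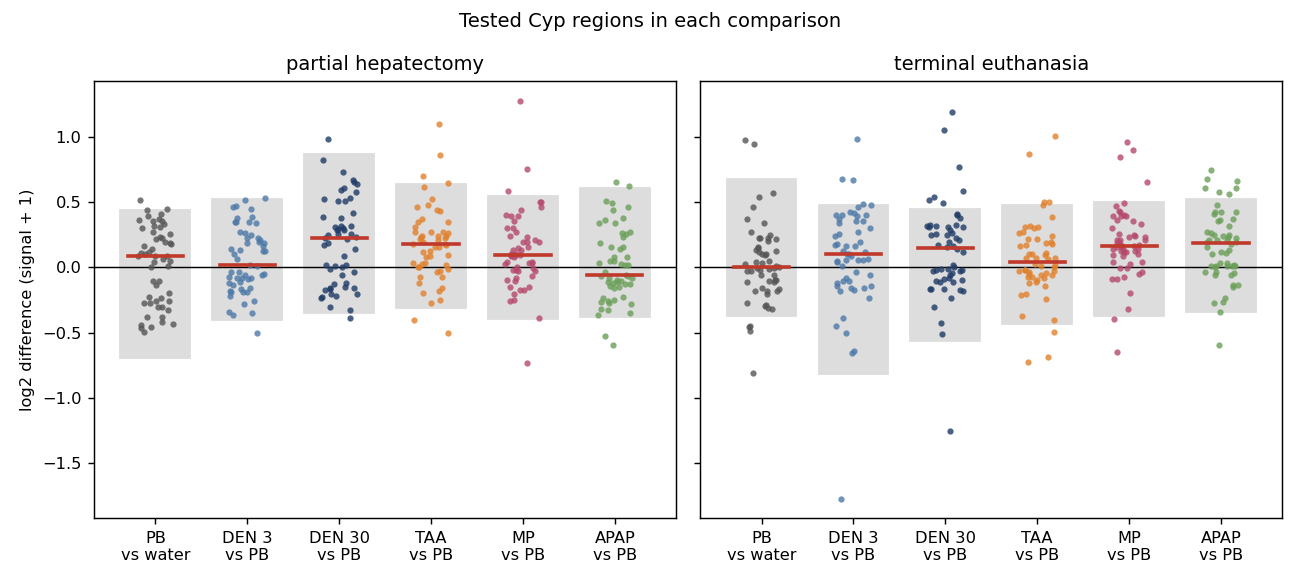
Log2 difference of signal + 1 (vertical axis) for each tested Cyp region, 1 point a region, in the 6 comparisons at each time, with the group named first over the one after "vs". Red bars are Cyp medians and grey boxes span the 5th to 95th percentile of all tested regions. The Cyp medians run from -0.06 to 0.22.

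Cyp4f5, which in rat hydroxylates leukotrienes and other eicosanoids (chromosome 7, 13115051 to 13120676), had the smallest p of all members. At partial hepatectomy it had 38.1, 65.9, 52.1, 86.1 and 87.8 in MP livers, against 35.8, 11.1, 76.3, 16.4 and 20.7 in phenobarbital livers. All but 1 control library lay under the MP group, and that library lay inside it. The log2 difference was 1.27 (SE 0.34, adjusted p = 0.881 in limma). Leaving out that control library, replicate 3, gave 1.66 with an adjusted p of 0.1, the smallest of any Cyp region for a difference between groups or times under any setting.

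TAA livers were similar for Cyp4f5 at partial hepatectomy, with 39.7, 64.5, 48.6, 39.6 and 106 and a log2 difference of 1.09 (SE 0.34, adjusted p = 0.89 in limma). That difference was 0.86 without the last block of library numbers, which holds the TAA library at 106. At terminal euthanasia TAA livers had 45.1, 41.7, 50.6, 54.7 and 124, MP livers 46.3, 64.015, 31.6, 53.5 and 72.8, and phenobarbital livers 34.7, 10.7, 49.7, 28.8 and 33.2. The ranges overlapped, and the log2 differences were 1.01 for TAA and 0.84 for MP, both with SE 0.34 and an adjusted p of 1.00. Without the last block of library numbers, which holds the TAA library at 124, the TAA value was 0.74, and without phenobarbital replicate 2 the MP value was 0.51.

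The phenobarbital control was itself low for Cyp4f5. It averaged 32.1 ± 26.4 at partial hepatectomy, against 37.1 ± 15.7 in water livers, and 31.4 ± 13.99 at terminal euthanasia, against 50.4 ± 4.07 in water livers. The second difference was -0.81 on the log2 scale (SE 0.34, adjusted p = 1.00 in limma), and -0.48 without phenobarbital replicate 2. All 5 water libraries at terminal euthanasia lay between 45.1 and 55.5, and 1 phenobarbital library, at 49.7, lay among them. DEN 30 livers averaged 31.6 ± 8.82 and 37.5 ± 12.9 at the 2 times, close to the phenobarbital control, while DEN 3 livers averaged 39.6 ± 19.3 and 52.8 ± 25.96 and APAP livers 42.8 ± 14.002 and 47.5 ± 22.6.

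Cyp3a23/3a1, a steroid and drug hydroxylase under the pregnane X receptor whose promoter is printed above (region on chromosome 12, 9594849 to 9600474), lay above the phenobarbital control in every initiator group at both times. At partial hepatectomy DEN 30 livers had 49.7, 31.5, 46.03, 37.1 and 37.99 and TAA livers 45.2, 42.975, 43.6, 29.5 and 46.3, against 24.2, 20.003, 14.8, 27.3 and 27.3 in phenobarbital livers. Neither group overlapped the control, and the share of all regions without overlap was not counted. The log2 differences were 0.82 (SE 0.28, adjusted p = 0.543 in limma) for DEN 30 and 0.86 (SE 0.28, adjusted p = 0.982) for TAA. MP livers, at 40.1 ± 14.3, differed by 0.75, and DEN 3 livers, at 24.9 ± 5.11, by 0.14. Water livers, at 33.1 ± 10.9, stood between the phenobarbital control and the DEN 30, TAA and MP groups.

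At terminal euthanasia Cyp3a23/3a1 averaged 40.9 ± 15.4 in DEN 30 livers and 37.8 ± 8.68 in DEN 3 livers, against 24.5 ± 18.6 in the phenobarbital control. The log2 differences were 1.05 and 0.98 (SE 0.36 each), with limma adjusted p of 0.999 and 0.579, and all groups overlapped. Without phenobarbital replicate 3, the lowest control library, they were 0.64 and 0.57, and without replicate 5, the highest, 1.39 and 1.32. With the block of library numbers as a covariate DEN 30 gave 0.58 at partial hepatectomy and 0.79 at terminal euthanasia. This region was also higher in the 9 libraries with few empty regions, with a median of 43.1 against 29.9 in the other 61. Without them the DEN 30 values were 0.79 at partial hepatectomy and 1.29 at terminal euthanasia.

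Cyp2c11, whose printed promoter has no CpG, had 32.8, 8.41, 40.3, 34.1 and 36.96 in DEN 30 livers at partial hepatectomy, against 18.96, 6.67, 15.9, 9.82 and 19.7 in phenobarbital livers. All but 1 DEN 30 library exceeded all of the control. The log2 difference was 0.98 (SE 0.40, adjusted p = 0.59 in limma), and without the 9 libraries with few empty regions it was 0.69. Cyp4a1, the fatty acid hydroxylase under PPARα, averaged 63.2 ± 11.95 in DEN 30 livers and 46.2 ± 19.2 in phenobarbital livers, a log2 difference of 0.51.

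Cyp17a1, the steroid 17-hydroxylase, had 99.3, 73.7, 64.4, 57.1 and 87.4 in TAA livers at partial hepatectomy, against 40.02, 63.3, 43.4, 49.1 and 44.2 in phenobarbital livers. The log2 difference was 0.65 (SE 0.20, adjusted p = 0.89 in limma). DEN 3 and APAP livers averaged 69.7 ± 11.01 and 66.3 ± 9.89, or 0.53 and 0.46 above the control on the log2 scale. Water livers averaged 60.1 ± 14.03, so for this gene too the shared control was the lowest group. The bile acid enzyme Cyp7a1 averaged 64.9 ± 11.96 in DEN 3 and 65.6 ± 14.3 in MP livers, against 47.5 ± 10.01 in phenobarbital livers, with log2 differences of 0.45 and 0.46.

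**Figure D4:**
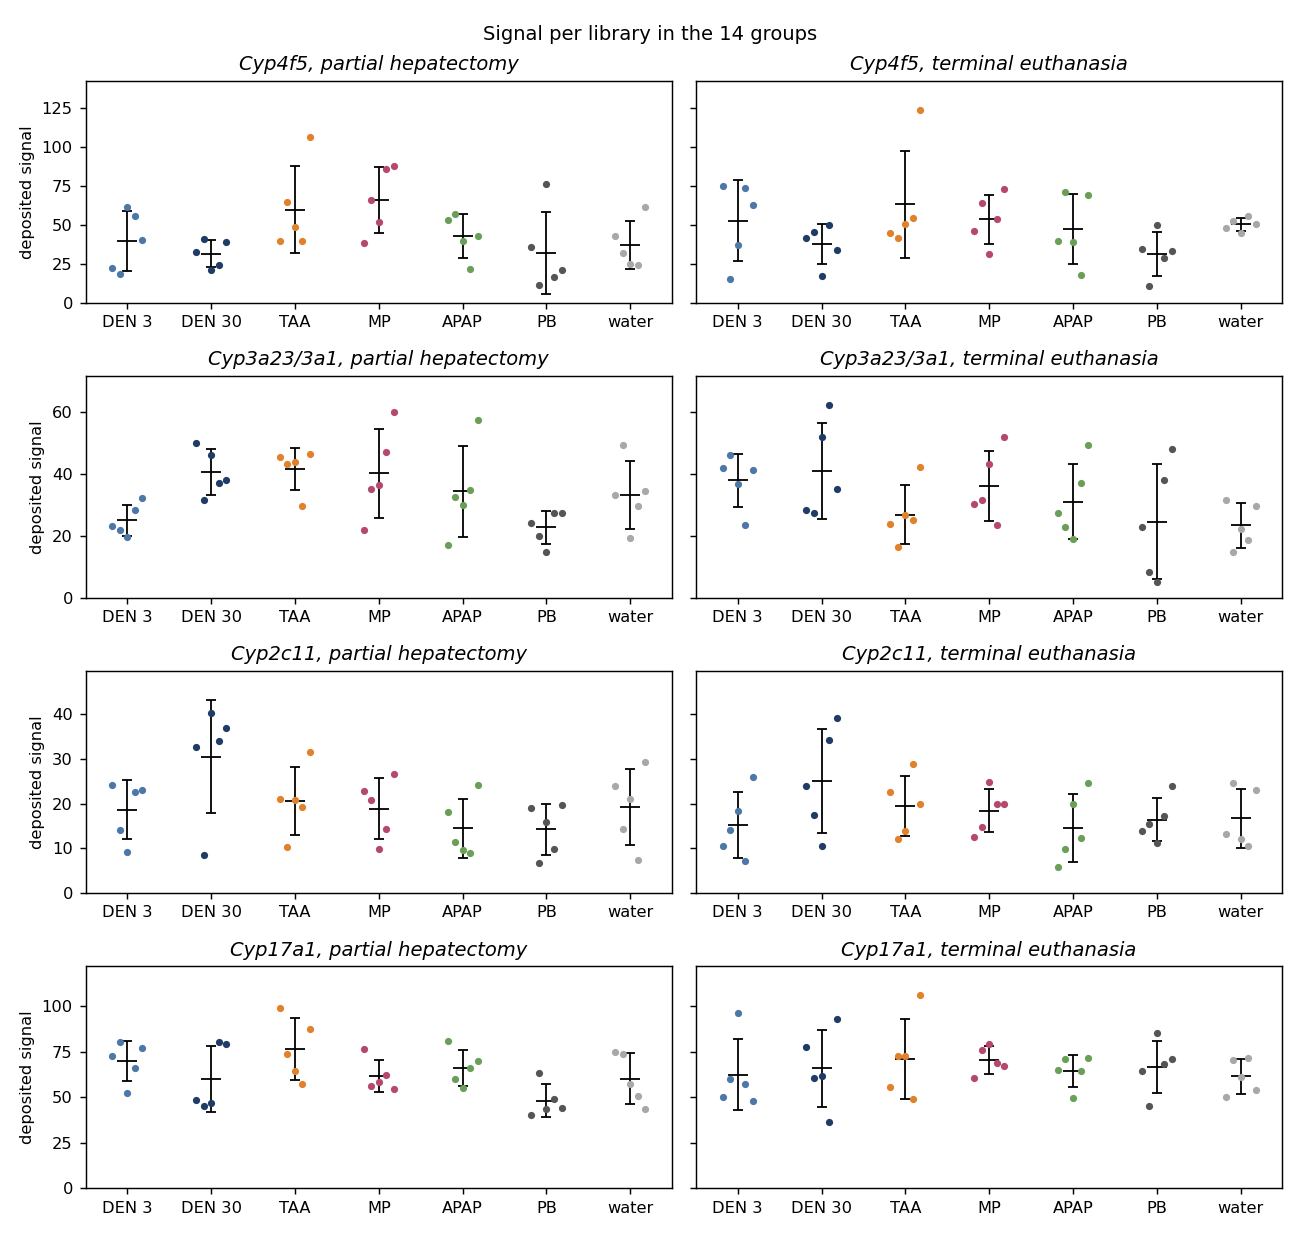
Deposited signal (vertical axes, linear, the same for both panels of a row) of Cyp4f5, Cyp3a23/3a1, Cyp2c11 and Cyp17a1 in the 14 groups, partial hepatectomy on the left and terminal euthanasia on the right. Points are single libraries, ticks are means and bars are 1 SD (n = 5). The phenobarbital control has the lowest or second lowest mean of Cyp3a23/3a1 at both times, 22.7 and 24.5.

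Further differences at terminal euthanasia stayed within the same bounds. Cyp4f6, another leukotriene hydroxylase, had 83.7, 108.5, 101.5, 89.8 and 135.7 in MP livers, against 70.4, 42.8, 89.2, 69.2 and 61.8 in phenobarbital livers, a log2 difference of 0.65 (SE 0.20, adjusted p = 1.00 in limma). Most MP libraries exceeded all controls. Cyp2j10, of the arachidonic acid epoxygenase subfamily, averaged 19.6 ± 7.87 in DEN 30 livers and 8.76 ± 5.07 in phenobarbital livers (log2 1.19). Cyp2t1 averaged 147.7 ± 19.5 in DEN 3 livers and 105.7 ± 16.8 in phenobarbital livers (log2 0.49), and Cyp20a1 45.6 ± 15.6 in APAP livers and 28.6 ± 3.05 in phenobarbital livers (log2 0.61). In both of these the groups did not overlap, and the adjusted p in limma was 0.579 and 0.999. Both were named for their small p, and the share of all regions without overlap was not counted. Cyp4f1 in APAP livers (44.2 ± 8.98, against 29.2 ± 18.5) and Cyp2d2 in TAA livers (27.99 ± 5.34, against 16.6 ± 10.8) differed by 0.74 and 0.86. Without phenobarbital replicate 3 the Cyp4f1 value was 0.49.

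Values under the control were fewer and met no threshold. Cyp2j4 averaged 1.87 ± 2.70 in DEN 3 livers at terminal euthanasia and 8.42 ± 7.26 in phenobarbital livers (log2 -1.77, adjusted p = 0.579 in limma), with 2 of 5 DEN 3 libraries at no read. Without the phenobarbital library with few empty regions the control mean was 6.52 ± 6.80 (n = 4). Cyp2j4 had 10.6 to 20.4 in the 9 libraries with few empty regions and a median of 2.03 in the other 61. Its passing of the filter at terminal euthanasia thus leaned on those libraries. Without them 54 Cyp regions passed the filter at that time, and no fitted difference of Cyp2j4 is given. Cyp2e1, which activates acetaminophen, averaged 21.1 ± 12.3 in APAP livers at partial hepatectomy and 27.9 ± 4.92 in phenobarbital livers (log2 -0.60, or -0.22 without APAP replicate 2). Cyp2g1 averaged 49.4 ± 18.3 in DEN 3 livers and 51.2 ± 22.3 in TAA livers at partial hepatectomy, against 68.1 ± 16.4 in phenobarbital livers.

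The authors' deposited table holds an unadjusted p-value for each region in the same comparisons. It lists p under 0.05 for 5 Cyp regions in DEN 30 at partial hepatectomy (5.23% of all regions), 6 for TAA (4.3%), 4 for MP (3.92%), 3 for DEN 3 (3.3%), 1 for APAP (2.95%) and 1, Cyp4f4, between phenobarbital and water (3.8%). At terminal euthanasia the authors' deposited table had 3 for DEN 30 (2.38%), 2 for TAA (2.32%), 6 for MP (4.08%), 2 for DEN 3 (4.31%), 5 for APAP (2.96%) and 0 between phenobarbital and water (2.11%). Cyp3a23/3a1 and Cyp2c11 were among those for DEN 30 at partial hepatectomy, and Cyp17a1 was among those for DEN 3, TAA, MP and APAP at that time. Between 69 and 71 Cyp regions had such a p in each comparison. Cyp4a3 and the Cyp4a2 entry of equal values were both counted for MP at partial hepatectomy and for APAP at terminal euthanasia, though they are 1 measurement.

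The 2 times were compared over all 70 libraries, where 56 Cyp regions were tested and 0 passed (0.0671% of all regions did). At an unadjusted p under 0.05, 4 lay above at terminal euthanasia and 1 below (all regions: 6.01% and 0.574%), and the Cyp median was 0.04 on the log2 scale, against 0.05 for all. The smallest p values belonged to Cyp26b1, Cyp24a1 and Cyp26a1, of the 4 vitamin A and D genes. Cyp26b1, which degrades retinoic acid, averaged 35.3 ± 13.03 at terminal euthanasia and 28.1 ± 11.9 at partial hepatectomy (n = 35 each), a log2 difference of 0.34 (SE 0.13, adjusted p = 0.507 in limma). It was higher at terminal euthanasia in 5 of 7 conditions. Cyp24a1, which degrades active vitamin D, averaged 126.7 ± 21.6 and 113.1 ± 25.5 (log2 0.18, 6 of 7 conditions), and Cyp26a1 13.7 ± 8.35 and 10.5 ± 8.03 (log2 0.45, 5 of 7). In the other direction Cyp2a2, a testosterone hydroxylase, averaged 15.02 ± 7.66 and 18.2 ± 6.59 (log2 -0.35). Cyp26b1 and Cyp26a1 were also higher in the 9 libraries with few empty regions (medians 53.3 and 19.1) than in the other 61 (27.2 and 9.83). Leaving out 1 library at a time gave 0.30 to 0.38 for Cyp26b1 and 0.39 to 0.52 for Cyp26a1. Whether a treatment difference itself differed between the times was tested for each of the 6 comparisons, and 0 Cyp regions and 0% of all regions passed. The smallest p there was that of Cyp4f6 for MP (log2 difference of differences 0.86, SE 0.29, adjusted p = 1.00 in limma).

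Libraries of one group spread somewhat more over the Cyp regions than over the table. The median SD of log2 signal within groups was 0.447 over 56 Cyp regions and 0.385 over 16385 regions. Labels give equal replicate numbers at the 2 times without saying that they mark the same rat. For each region the deviation from the group mean was therefore correlated between libraries of equal number and condition over 35 pairs. This relation was added after seeing the data. For Cyp4a3, an arachidonic acid hydroxylase, and the Cyp4a2 entry that shares its values, Pearson's r was 0.62 and Spearman's rho 0.56 (permutation p = 1e-04 and 0.0014 over 100000 permutations within conditions). For Cyp4f5, r was 0.62 and rho 0.53 (permutation p = 0.00054 and 0.0041). Adjusted over all 16385 regions, with p from a linear model, these came to 0.0713 and 0.0739, and 0 of 56 Cyp regions passed, where 0.384% of all regions did. An earlier version that took the p of all regions from permutations had placed Cyp4a3 just past the threshold, so that call depends on how the p was computed.

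Leaving out the 2 pairs farthest from the median at partial hepatectomy left r at 0.585 for Cyp4a3 and 0.533 for Cyp4f5. Over all settings r ran from 0.516 to 0.70 for Cyp4a3 and from 0.474 to 0.718 for Cyp4f5. Leaving out replicate number 2 gave the 0.474. The 2 regions stood at the 99.6th percentile of r among all regions tested. The Cyp set as a whole did not stand out: its median r was 0.0657, against 0.0995 for all, and 35 of 56 were above 0, against 70.5% of all. Cyp26a1 had an r of -0.42. Within a group the spread of Cyp4f5 was wide, as in phenobarbital livers, where replicate 2 was the lowest at both times (11.1 and 10.7) and replicate 3 the highest (76.3 and 49.7).

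**Figure D5:**
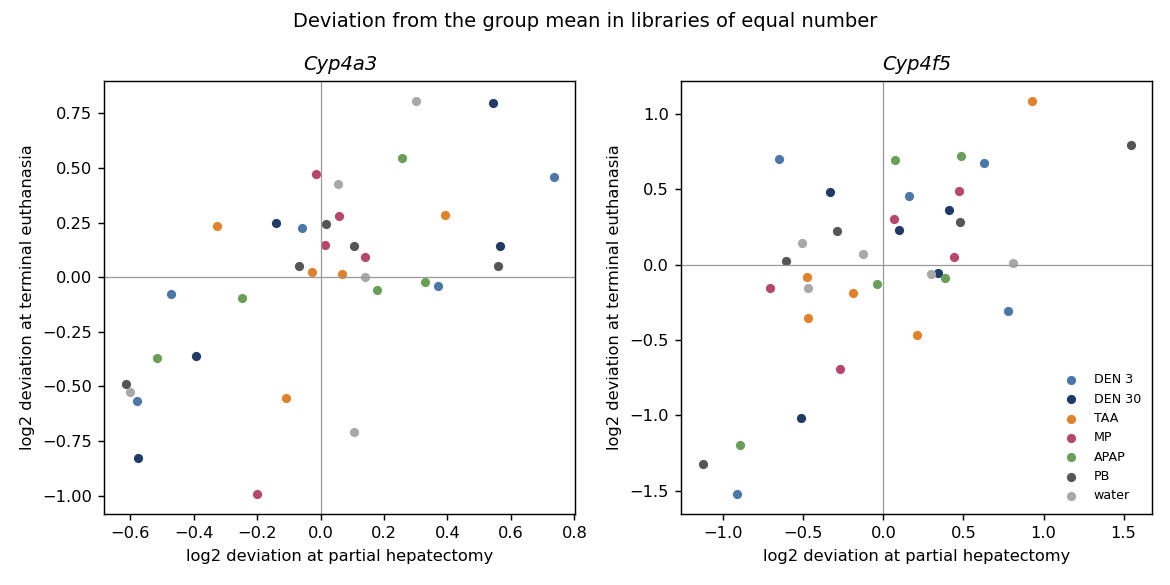
Deviation of log2 signal + 1 from the group mean at terminal euthanasia (vertical axis) against the deviation at partial hepatectomy (horizontal axis) for Cyp4a3 and Cyp4f5. Each of 35 points is a pair of libraries with equal condition and number, coloured by condition; both regions have an r of 0.62.

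A deposited peak list sets DEN 30 against the phenobarbital control and gives, as the authors' own values, the read counts of each peak in the 2 sets. At the time it calls 5w, 15 peaks were assigned to 14 Cyp genes and all 15 were higher in DEN 30, as were 95.4% of the 29055 peaks in the list. At 11w there were 5 peaks assigned to 4 Cyp genes, 2 of them higher in DEN 30, against 32.2% of 6268. In the authors' deposited table the Cyp17a1 peak (chromosome 1, 251971404 to 251971598) had 15 reads in DEN 30 and 1 in the control. The authors' deposited table labels this peak as coding exon and 5′ UTR, with a distance value of -42 to the start. The authors' deposited table gives 23 and 3 reads for Cyp1b1 and 15 and 1 for Cyp1a1, both upstream, and 27 and 4 for an intron of Cyp4v3, all at 5w. One further 11w peak overlapped the Cyp1a2 region under another symbol, and for it the authors' deposited table has 3 reads in DEN 30 and 16 in the control.

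Most of the remaining Cyp peaks lay in introns outside the 5625 bp regions, such as those of Cyp2a1 (28 reads in DEN 30 and 2 in the control in the authors' deposited table) and Cyp2c23 (23 and 1). Cyp2b12 and Cyp2b15 shared 1 peak. Over the whole region Cyp17a1 averaged 60.04 ± 17.97 in DEN 30 livers and 48.02 ± 9.16 in phenobarbital livers at partial hepatectomy. No source used here says whether libraries were pooled for the peaks, and the peak list's 11w differs from the 10W of the region table, so a link of the second times rests on reading them as one.

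The partners of the P450 enzymes were taken from a list of 28 genes for electron donors, haem synthesis and breakdown, inducing receptors and companions, of which 27 were in the tables. In phenobarbital against water, 0 of 27 tested regions passed at partial hepatectomy and 0 of 28 at terminal euthanasia, with medians of 0.01 (all regions 0.06) and -0.09 (-0.00). The smallest p values at partial hepatectomy were those of Hmox2, a haem oxygenase (53.1 ± 18.2 with phenobarbital and 36.6 ± 15.4 with water, log2 0.61), and Cyb5r3, which reduces cytochrome b5 (7.56 ± 1.20 and 16.4 ± 10.2, log2 -0.86), both with a limma adjusted p of 0.742. In the initiator comparisons 0 of the list passed, and its medians lay between -0.01 and 0.15 at partial hepatectomy and between 0.05 and 0.21 at terminal euthanasia.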

How the data were processed

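Rat liver DNA was analysed from deposited tables only. The authors deposited 2 tables of signal over 17174 regions, 1 for each time, with group means and a p-value of the authors per region, per the file headers. In each column the signal is a read number times 50 M (M, 1e6) over a scaling total, and 0.01 stands for no read. A deposited peak list gives the authors' read counts per peak, a read density and an enrichment factor, which is a ratio. No source used here names the aligner, peak caller or genome build.

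Groups came from the labels, which state 5 rat livers a group. limma 3.58.1 in R 4.3.3 was fitted to log2(signal + 1) over all regions with a signal of 10 or more in at least 5 libraries (15809 at partial hepatectomy, 16008 at terminal euthanasia, 16385 for both), with 1 mean per group, a variance trend and Benjamini-Hochberg adjustment over all tested regions at 0.05. Fold differences are on that scale and understate those of low regions. The fit was tried on simulated counts with a single fixed dispersion and changes planted only in regions of higher signal. That trial does not cover differences in low Cyp regions. Python 3.11.15 with pandas 2.3.3, numpy 2.4.6, scipy 1.17.1 and matplotlib 3.10.9 did the rest. No column was left out.

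The members and gene lists were chosen with earlier results of these data known. Named members were 16 fixed genes, the 2 per direction with the smallest p in each treatment comparison, 5 per direction between the times, 5 in each F test, the 5 highest and lowest levels, and those with a peak; others are said to be chosen after their values were seen. Alternatives were other scalings, a pseudocount of 10, no filter, batch terms and leaving out libraries. With 5 libraries a group, precision is limited. The limma p-values set a difference of means against the spread of livers within groups, pooled over all groups of the fit.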

Additional observations from a re-analysis of the deposited data

Results flagged for a closer look

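In groups of 5, a library was marked where its gap to the nearest of the others exceeded 0.71 of the group's range (Dixon's 95% value). This was so for 12 of 121 named member and group values. Chance marks about 1 in 20 where values are independent and normal. Here the signal was not log transformed, the same libraries recur, and many members were named for small p, so the 12 cannot be read as an excess. All values are deposited signal, and the range of the other 4 libraries follows each.

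Lone low libraries were replicate 2 of DEN 30 at partial hepatectomy for Cyp2c11 (8.41, others 32.8 to 40.3) and replicate 5 of the phenobarbital control at terminal euthanasia for Cyp2t1 (76.7, others 105.8 to 116.4). That phenobarbital library was a lone high one for Cyp2d2 (35.5, others 8.92 to 14.3), and it is 1 of the 9 with few empty regions. So is replicate 5 of the water control at partial hepatectomy, high for Cyp26a1 (38.5, others 4.00 to 12.6). Their part in these values was not tested.

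The other lone libraries were high. Cyp4f5 had 124.0 in replicate 5 of TAA at terminal euthanasia (others 41.7 to 54.7), and Cyp20a1 had 73.0 in replicate 4 of APAP (others 33.8 to 40.9). In DEN 3 livers at that time Cyp1a2 had 19.4 in replicate 3 (others 7.06 to 8.98) and Cyp2j4 had 6.52 in replicate 5 (others 0.01 to 1.80). Cyp46a1 had 211.8 in replicate 2 of DEN 3 (others 130.8 to 148.5) and 219.1 in replicate 5 of TAA (others 141.7 to 162.7) at partial hepatectomy. In water livers Cyp4a1 had 75.99 in replicate 1 at partial hepatectomy (others 44.1 to 52.6), and Cyp1b1 had 157.3 in replicate 5 at terminal euthanasia (others 124.6 to 131.8).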

How the results depend on the processing

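The count of Cyp regions past the threshold was 0 in all 581 combinations of a comparison and a setting. Many of these combinations came from the same fit. The smallest adjusted p in limma of a difference between groups or times was 0.1. Of 2117 alternative values of 81 named differences, 40 changed sign. In phenobarbital against water, quantile normalization gave -0.17 for Cyp1b1 and 0.17 for Cyp2b1 at partial hepatectomy, and 0.085 for Cyp1b1, -0.21 for Cyp2c11, -0.14 for Cyp2e1 and -0.10 for Cyp7a1 at terminal euthanasia. Rescaling to reads in the regions gave -0.11 for Cyp1b1 and -0.013 for Cyp2e1 at partial hepatectomy and 0.018 for Cyp1b1 at terminal euthanasia. A pseudocount of 10 gave -0.0018 for Cyp2c11 at terminal euthanasia. Without the 9 libraries with few empty regions, Cyp1b1 gave -0.054 at partial hepatectomy, and at terminal euthanasia Cyp1b1 gave 0.0195, Cyp2c11 -0.13, Cyp4a1 0.063 and Cyp26a1 -0.15. Leaving out 1 library at a time turned signs within -0.070 to 0.090 for Cyp1b1 and -0.11 to 0.31 for Cyp2e1 at partial hepatectomy. At terminal euthanasia the ranges were -0.50 to 0.012 for Cyp1a1, -0.040 to 0.052 for Cyp1b1, -0.13 to 0.17 for Cyp2c11, -0.061 to 0.27 for Cyp2e1, -0.63 to 0.13 for Cyp3a23/3a1, -0.17 to 0.063 for Cyp4a1, -0.10 to 0.23 for Cyp7a1 and -0.15 to 0.50 for Cyp26a1, and for TAA against phenobarbital -0.80 to 0.038 for Cyp2f4. The cause was not tested.

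Quantile normalization moved the median of all regions for APAP at terminal euthanasia from 0.11 to 0.01, and the Cyp median stood 0.07 above it before and 0.04 after. Rescaling to reads in the regions moved the all-region median to 0.01 in that comparison, to -0.06 for phenobarbital against water at partial hepatectomy (0.06 as deposited) and to -0.08 for DEN 3 at terminal euthanasia (0.09 as deposited), with Cyp medians of 0.07, -0.03 and -0.07. Labels do not say that a replicate number marks a rat. Across groups of one time, the deviations of the 105 same-numbered pairs had a median correlation of 0.01 at partial hepatectomy and 0.02 at terminal euthanasia, so no pairing between groups was used. Across the times, the 35 pairs of one condition had a median of 0.08 and 11 exceeded 0.1. Of the 35, 13 matched their own number best, where about 1 is expected if all libraries of the other time are equally likely. A called correlation was above 0 in 63 regions and below 0 in 0. Libraries of equal condition and number also fell in the same block of library numbers at both times. Whether these matches came from the same rat or from the shared block was not tested. The replicate block gave 0 Cyp calls in 21 comparisons. Count models (edgeR, DESeq2) were planned but not run, although 100.0% of the values above the no-read value come out as whole reads within 0.01. Reads in low regions limit the 16 Cyp regions never tested.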
